A study of Homo sapiens with 6 samples.

Results

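The genes described here encode the factors that start and extend protein synthesis on cytosolic ribosomes. They are the translation initiation factors (eIF), the elongation factors (eEF), the poly(A)-binding proteins PABPC1 and PABPC4, the eIF4E-binding proteins EIF4EBP1 and EIF4EBP2, and TPT1. The members were a list of 45 gene symbols, of which 44 were found among the 29476 genes of the deposited table, and all 44 passed the filter on low counts. EEF1G, a subunit of the elongation factor eEF1, was not analysed here. RNA sequencing was done on 6 libraries of A549, a lung adenocarcinoma cell line: 3 from cells transfected with a negative control siRNA (si-NC 4, 5 and 6) and 3 from cells given an siRNA that targets NORAD, a long noncoding RNA (si-NORAD 4, 5 and 6). All 6 shared the line, the RPMI-1640 medium, the lipid transfection reagent and the depletion of ribosomal RNA. No source used here gives the siRNA sequences or the time after transfection. The labels do not say whether replicate libraries stem from different cultures, and p-values therefore cover only the variation among these 6 libraries, which may be technical.

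Translation starts when eIF2, loaded with the initiator tRNA, joins eIF1, eIF3 and eIF5 on the small ribosomal subunit, and eIF4E, eIF4A and eIF4G bring that subunit to the capped mRNA. eIF2B reloads eIF2, the 4E-BPs hold eIF4E away from eIF4G, and eEF1 and eEF2 then carry the ribosome along the mRNA. Many mRNAs of the elongation factors and of ribosomal proteins begin with a terminal oligopyrimidine (TOP) motif, a C at the cap followed by an uninterrupted run of C or T. Their translation depends strongly on mTOR, the growth-regulating kinase. Among the members, EEF1A1, EEF1B2, EEF1D, EEF1G, EEF2, TPT1, PABPC1, EIF3E, EIF3F, EIF3H and EIF4B were set apart as TOP type (11 genes, 10 of them in the table) and compared with the other 34.

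The TOP motif could be read at annotated transcript starts in the RefSeq set used here (build GRCh38.p14). This set listed a start for 35 of the 45 genes, 7 of them TOP type. A gene absent from the set may still have a start in RefSeq. The motif searched was a C at the first transcribed base followed by at least 4 bases that are each C or T, on the strand of the gene. It stood at 1 or more starts of 6 of these 7 TOP type genes and of 5 of the 28 others. Of the genes tested with a listed start, 7.29% held it. The windows of TOP type genes are shown because they carry the sequence that names the class. They run from 10 bases before the start to 20 bases from it, with the pyrimidine run in capitals.
EEF1A1 (chr6:73521013-73521042, minus strand): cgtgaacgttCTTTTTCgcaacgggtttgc
EEF1B2 (chr2:206159885-206159914, plus strand): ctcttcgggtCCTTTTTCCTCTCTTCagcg
EEF2 (chr19:3985444-3985473, minus strand): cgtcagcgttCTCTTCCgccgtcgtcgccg
TPT1 (chr13:45341164-45341193, minus strand): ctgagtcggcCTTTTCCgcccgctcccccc
EIF3F (chr11:7987327-7987356, plus strand): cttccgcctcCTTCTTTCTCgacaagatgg
EIF4B (chr12:53006446-53006475, plus strand): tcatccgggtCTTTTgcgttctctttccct

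The same motif stood at a RefSeq start of 5 genes outside the named TOP type: EIF2S3, EIF3D, EIF3K, EIF3M and EIF4A2. These windows are shown because they carry the sequence without the label, and the last pair shows starts that lack it.
EIF2S3 (chrX:24054946-24054975, plus strand): gatttccttcCTCTTTTggcaacatggcgg
EIF3D (chr22:36529147-36529176, minus strand): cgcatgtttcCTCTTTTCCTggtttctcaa
EIF3K (chr19:38619178-38619207, plus strand): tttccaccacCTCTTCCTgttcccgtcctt
EIF3M (chr11:32583821-32583850, plus strand): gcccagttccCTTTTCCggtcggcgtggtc
EIF4A2 (chr3:186783567-186783596, plus strand): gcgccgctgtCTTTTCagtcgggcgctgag
EIF1 (chr17:41688875-41688904, plus strand): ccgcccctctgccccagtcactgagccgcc
EIF3I (chr1:32222397-32222426, plus strand): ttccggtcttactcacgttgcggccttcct

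Before the members, the targeted RNA was checked. NORAD was at 550, 461 and 423 CPM (counts scaled to library size by edgeR's TMM method) in si-NC 4, 5 and 6. In si-NORAD 4, 5 and 6 it was at 359, 372 and 400 CPM. The fit put it 21.1% below si-NC (log2 fold change -0.34, SE 0.11), which did not pass after adjustment over all genes (edgeR quasi-likelihood test, Benjamini-Hochberg adjusted p = 0.196). NORAD passed without the filter on low counts (-0.35, adjusted p = 0.0109). It also passed in edgeR without si-NC 4 (-0.23, adjusted p = 0.00757), a fit that called 20.3% of all genes tested as lower. Without si-NC 5 and si-NC 6, which leaves si-NC 4 alone in its group, the value was -0.55. The size of the NORAD difference thus depended on which si-NC libraries were used. In these bulk libraries less NORAD in each cell and a smaller share of cells holding it cannot be told apart. Library totals ran from 19332334 to 32760606 counts. The A549 label was checked on 13 epithelial and NRF2 pathway markers, all of which passed the low-count filter, with a mean of 926 FPKM (counts scaled by gene length and library size) for AKR1B10 and 401 for KRT18. The extraction text of the labels speaks of retinas, and markers of other cells were therefore looked at too: the retinal gene CRX and the leukocyte genes PTPRC and CD3E had means of 0.00303 FPKM or less. Over the whole lists, 4 of 10 retinal markers passed the low-count filter, the highest at a mean of 3.91 FPKM, as did 2 of 5 fibroblast markers (median 0.824 FPKM) and 1 of 6 leukocyte markers (ITGAM, 0.703 FPKM). The si-NC libraries differed more among themselves than the si-NORAD libraries did. For 80.1% of all 15515 genes tested the range over the 3 si-NC libraries exceeded that over the 3 si-NORAD libraries, and for 74.6% si-NC 4 lay nearer the si-NORAD mean than the mean of the other si-NC libraries. Values without si-NC 4, and without si-NC 5 and si-NC 6, are given below for the genes with the largest fold changes. With si-NC 4 so placed, leaving it out mostly enlarges a difference, and leaving out si-NC 5 and si-NC 6 mostly shrinks it. Neither fit is thus separate evidence for or against a difference. No member passed in edgeR when any other single library was left out.

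No translation factor gene passed the test between si-NORAD and si-NC (0 of 44 in the edgeR quasi-likelihood test at an adjusted p under 0.05, where 0.00645% of all genes tested passed). At an unadjusted p under 0.05, 12 were lower and 3 higher, against 12.1% and 9.51% of all genes tested. DESeq2 called 1 member, TPT1, as lower, where it called 2.48% of the genes it tested as lower and 1.09% as higher. Without the filter on low counts edgeR called 5 members as lower and 2 as higher, against 3.57% and 3.00% of all genes. No member passed where 0.0129% of genes were called as higher and none as lower (limma-voom, and the replicate block), or 0.0219% (log2 of FPKM plus 1 or 0.1), 0.00723% (a filter of 1 CPM), 0.00635% (without si-NC 6) or 0.0322% (length trend removed). Fitted values were below 0 for 31 of the 44 (49.1% of all genes tested) and the median log2 fold change was -0.11, against 0.01 over all genes tested. The count below 0 was 26 on the scale of log2 of FPKM plus 1, where the medians were -0.07 for the TOP type, -0.04 for the others and 0.04 over all genes tested. It was 24 without si-NC 5 and si-NC 6. All libraries of a group lay below those of the other in si-NORAD for 8 members and above for 5, where 12.7% and 12.7% of all genes tested did so. The fold changes ran from -0.54 for TPT1 to 0.57 for EIF4A1.

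**Figure D1:**
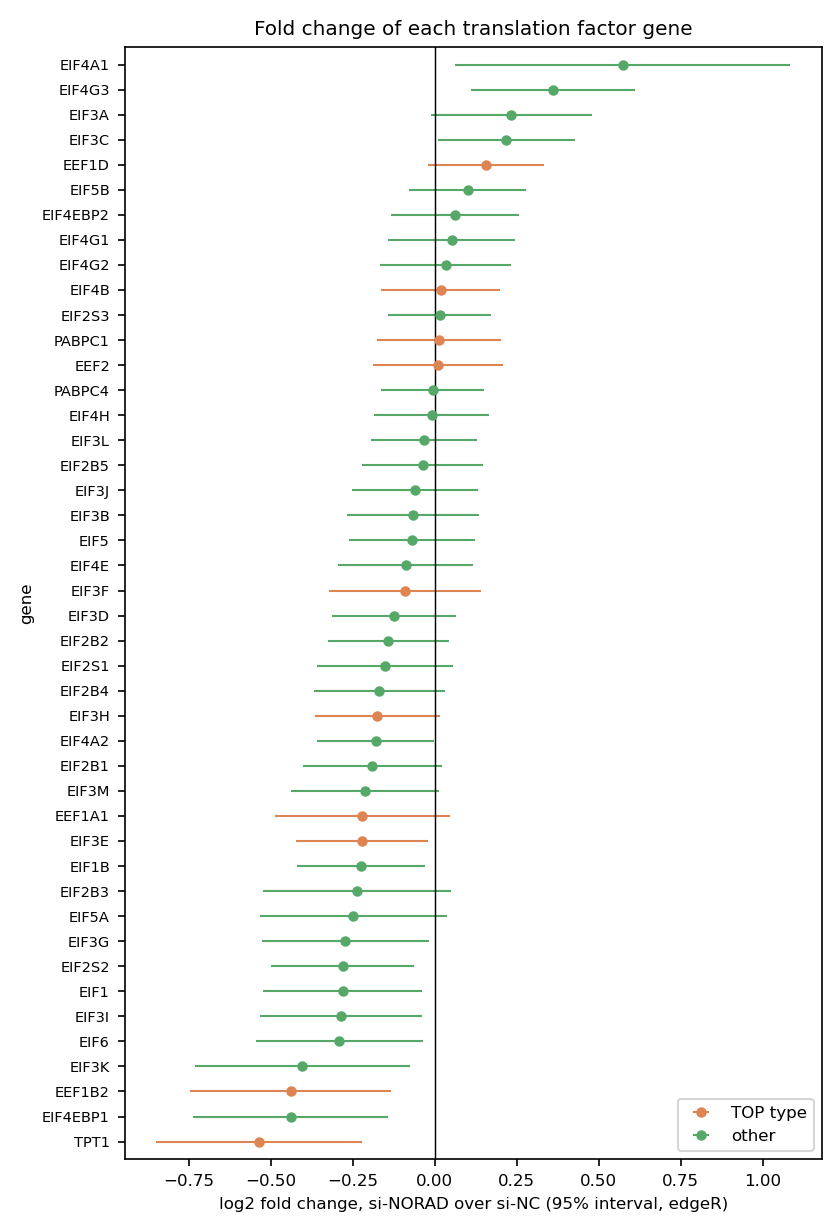
Fitted log2 fold change of si-NORAD over si-NC (horizontal axis) with its 95% interval from edgeR for each of the 44 genes, TOP type in orange and the others in green. TPT1, EIF4EBP1, EEF1B2 and EIF3K lie lowest, EIF4A1 and EIF4G3 highest, and no gene passed after adjustment.

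The distance between the siRNA groups lay largely in si-NC 5 and si-NC 6. In 25 of the 44 both of these libraries lay above every si-NORAD library, and in 7 both lay below, where 30.6% and 30.4% of all genes tested did so. si-NC 4 lay nearer the si-NORAD mean in 35 of the 44. The median range was 0.26 (log2) over the si-NC libraries and 0.07 over the si-NORAD libraries, and the si-NC range was the larger in 41 of the 44. With si-NC 4 left out, edgeR called 27 members, 22 lower and 5 higher, in a fit that called 20.3% of all genes tested as lower and 19.0% as higher. Those called lower included TPT1, EIF1B, EIF2S1, EIF2B1, EIF2B3, EIF2B4, EIF3D, EIF3F, EIF3G, EIF3H, EIF3M and EIF4A2, and those called higher included EIF3C. The paragraphs below do not repeat each of these calls. Each member said here or below to pass without si-NC 4 did so in this fit, and is to be read against these shares. Leaving out si-NC 5 and si-NC 6 instead, si-NC 4 stands alone and its spread is taken from the si-NORAD libraries. That fit called 2 members, TPT1 as lower and EIF5B as higher, against 1.51% and 1.53% of all genes tested.

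**Figure D2:**
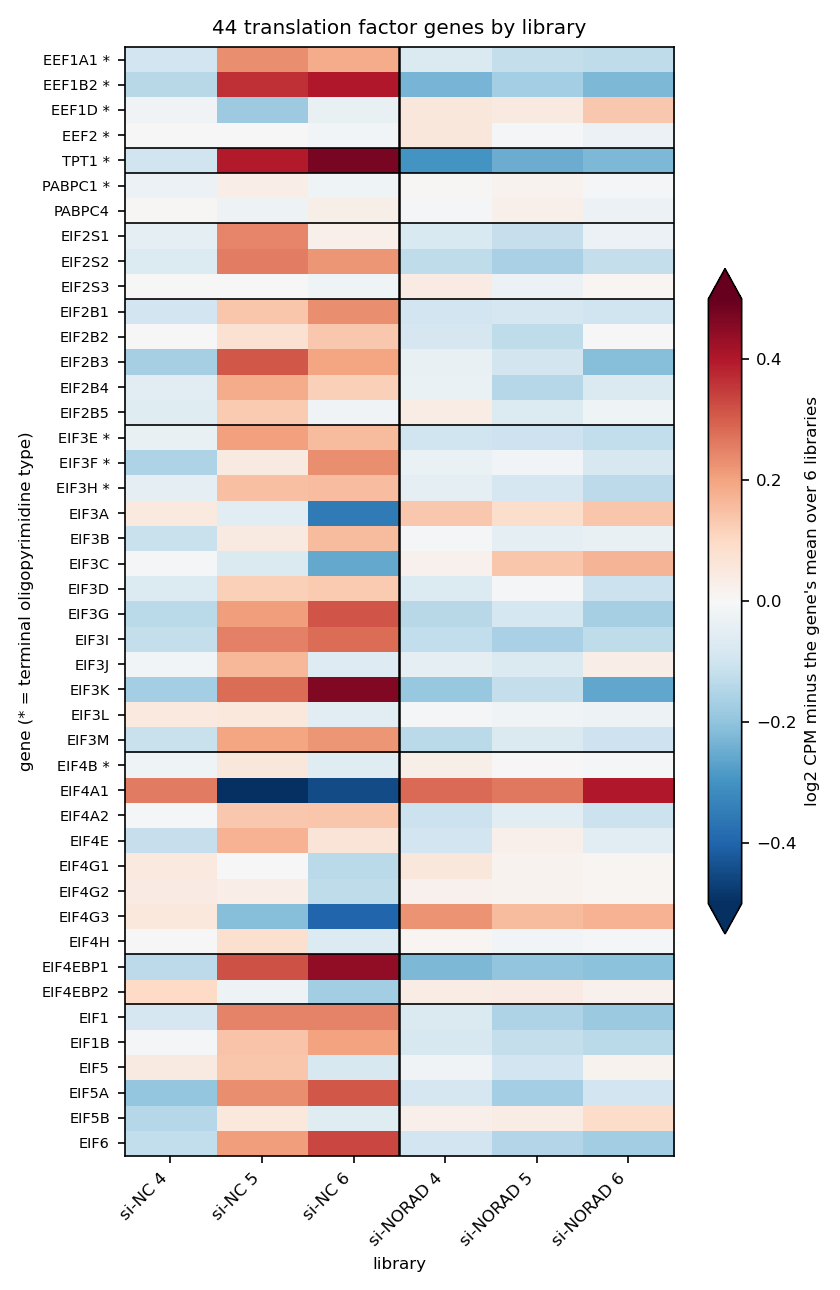
Colour gives log2 CPM minus the gene's own mean over the 6 libraries, for 44 genes (rows, grouped by role, TOP type marked with an asterisk) and 6 libraries (columns). Red stripes in si-NC 5 and si-NC 6 run through most initiation factor groups, EIF4A1 and EIF4G3 show the opposite, and EEF2, PABPC1, PABPC4 and EIF2S3 are near white throughout. Values beyond 0.5 in either direction share the end colours.

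TOP type genes and the others had similar medians in each library. Relative to each gene's own mean, the TOP type median was -0.04 in si-NC 4, 0.10 in si-NC 5 and 0.16 in si-NC 6, and -0.04, -0.05 and -0.10 (log2) in si-NORAD 4, 5 and 6. The median of the other 34 was -0.05, 0.14 and 0.09 in the si-NC libraries and -0.04, -0.07 and -0.03 in the si-NORAD libraries. The difference between the classes, TOP type minus other, thus ran from -0.07 in si-NORAD 6 to 0.06 in si-NC 6, and its si-NC values (0.01 for si-NC 4, then -0.03 and 0.06) overlapped its si-NORAD values (0.00394, 0.02 and -0.07). The median log2 fold change was -0.13 for the 10 TOP type genes and -0.11 for the 34 others, a difference of -0.03. That difference was 0.03 without si-NC 6 and 0.01 without si-NC 5 and si-NC 6, so its direction rested on those libraries. The summed FPKM of the TOP type genes made up 62.1% to 62.6% of the members' total in all 6 libraries.

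Ribosomal protein genes, the largest family of TOP mRNAs, spread further across the same libraries. Of the 63 with a listed RefSeq start, 47 held the motif. Their medians over 79 tested genes were -0.11, 0.33 and 0.47 (log2) in si-NC 4, 5 and 6, against -0.22, -0.20 and -0.24 in si-NORAD 4, 5 and 6. Both the ribosomal protein and the TOP type medians were highest in si-NC 6, but the TOP type factors had a median log2 fold change of -0.13 where the ribosomal protein genes had -0.47. This difference between lists was not tested. The lists also differed in gene length implied by count and FPKM, with medians of 3109 bases for the ribosomal protein genes and 6075.5 for the TOP type factors. Fold changes varied with gene length, as described below, and the lists were not compared with that trend removed.

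**Figure D3:**
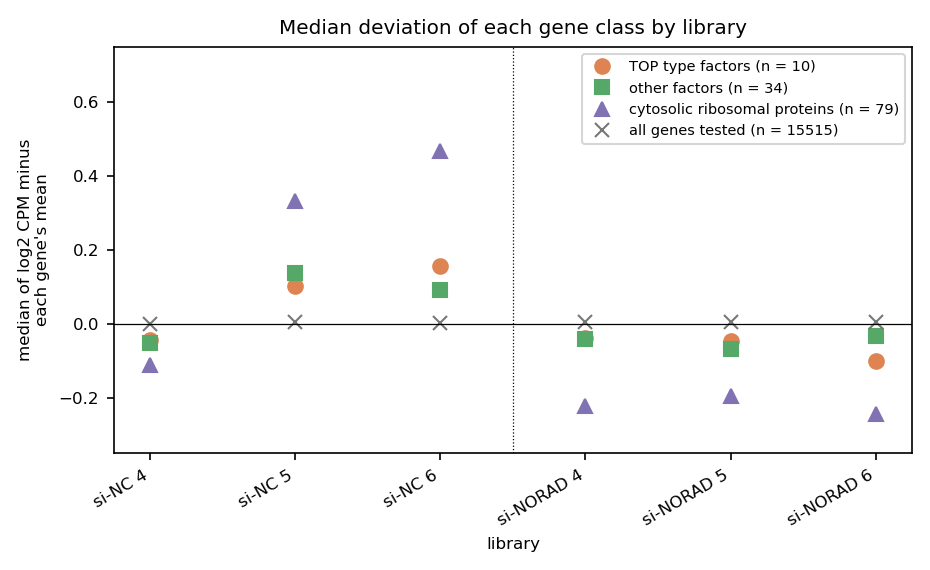
Median over the genes of a class of log2 CPM minus each gene's mean (vertical axis) in each library (horizontal axis), for 10 TOP type factors, 34 other factors, 79 ribosomal protein genes and all 15515 genes tested. The 2 factor classes lie within 0.07 of each other in every library, while the ribosomal protein genes reach 0.47 in si-NC 6.

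Of the elongation factor transcripts, EEF1A1 and EEF2 were the most abundant members and EEF1D was among the lower ones. EEF1A1, which delivers aminoacyl-tRNA to the ribosome, had the highest level per length, with a mean of 1753 FPKM over the 6 libraries, and EEF2, the translocase, followed with 701 FPKM. EEF1A1 was at 9748, 12214 and 11834 CPM in si-NC 4, 5 and 6, against 9902, 9581 and 9522 CPM in si-NORAD 4, 5 and 6. Its groups overlapped, since si-NC 4 lay below si-NORAD 4, and the log2 fold change was -0.22 (95% interval -0.49 to 0.05, edgeR adjusted p = 0.294). It was -0.01 without si-NC 5 and si-NC 6 and passed at -0.32 without si-NC 4 (adjusted p = 0.000112). GENCODE 29 names 39 EEF1A1 pseudogenes, and reads that match both could affect this count. The same limit applies to other members with named pseudogenes, among them TPT1 (14), EIF4A1 (13), PABPC1 (13), EIF4B (9), EEF1B2 (8) and EEF1D (8). EEF2 was at 2821, 2826 and 2802 CPM in si-NC 4, 5 and 6, against 2939, 2805 and 2767 CPM in si-NORAD 4, 5 and 6. It hardly varied in si-NC, and its interval ran from -0.19 to 0.21 (log2 fold change 0.01, adjusted p = 0.953).

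The guanine nucleotide exchange subunits of eEF1 had fitted values on either side of 0. EEF1B2 (ENSG00000114942, chr2:206159585-206162928, plus strand) was at 449, 639 and 655 CPM in si-NC 4, 5 and 6, against 422, 440 and 424 CPM in si-NORAD 4, 5 and 6. Every si-NORAD library lay below every si-NC library, but si-NC 4 stood much nearer to them than si-NC 5 and si-NC 6 did. The log2 fold change was -0.44 (SE 0.14, edgeR adjusted p = 0.196). It was -0.07 without si-NC 5 and si-NC 6 and -0.60 without si-NC 4, where it passed (adjusted p = 4.76e-06). EEF1D was at 110, 98.6 and 109 CPM in si-NC 4, 5 and 6, against 116, 115 and 123 CPM in si-NORAD 4, 5 and 6. All 3 si-NORAD values were the higher ones, with a log2 fold change of 0.16 (95% interval -0.02 to 0.33, adjusted p = 0.271). It passed without si-NC 4 (0.19, adjusted p = 0.0320) and was 0.0022 with the trend over gene length removed. Per length, EEF1D was at 11.9 FPKM and EEF1B2 at 262 FPKM, a gap that rests in part on implied lengths of 9390 and 1915 bases.

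TPT1, the abundant growth-related protein TCTP, had the lowest fold change among the members (TPT1, ENSG00000133112, chr13:45333471-45341370, minus strand, GRCh38). It was at 479, 675 and 714 CPM in si-NC 4, 5 and 6, against 417, 432 and 439 CPM in si-NORAD 4, 5 and 6. The groups did not overlap, with si-NC 4 a little above the si-NORAD libraries and si-NC 5 and si-NC 6 far above them. The log2 fold change was -0.54 (SE 0.14, 95% interval -0.85 to -0.22), which did not pass in edgeR (adjusted p = 0.196) and passed in DESeq2 (adjusted p = 0.0232). It stayed below 0 in all 17 alternative fits, from -0.70 without si-NC 4 to -0.16 without si-NC 5 and si-NC 6. In GENCODE 29, 2 antisense genes lie on the opposite strand of TPT1, and no source used here says whether the counting used strand.

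PABPC1 and PABPC4, which bind the poly(A) tail and contact eIF4G, gave the most even values. PABPC1 was at 1786, 1867 and 1797 CPM in si-NC 4, 5 and 6, against 1835, 1848 and 1817 CPM in si-NORAD 4, 5 and 6 (log2 fold change 0.01, 95% interval -0.18 to 0.20). PABPC4 was at 182, 178 and 185 CPM in the si-NC libraries, against 180, 185 and 178 CPM in the si-NORAD libraries (log2 fold change -0.01, interval -0.16 to 0.15). Groups overlapped for both, and the FPKM ratio of PABPC1 to PABPC4 stayed between 13.9 and 14.97.

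**Figure D4:**
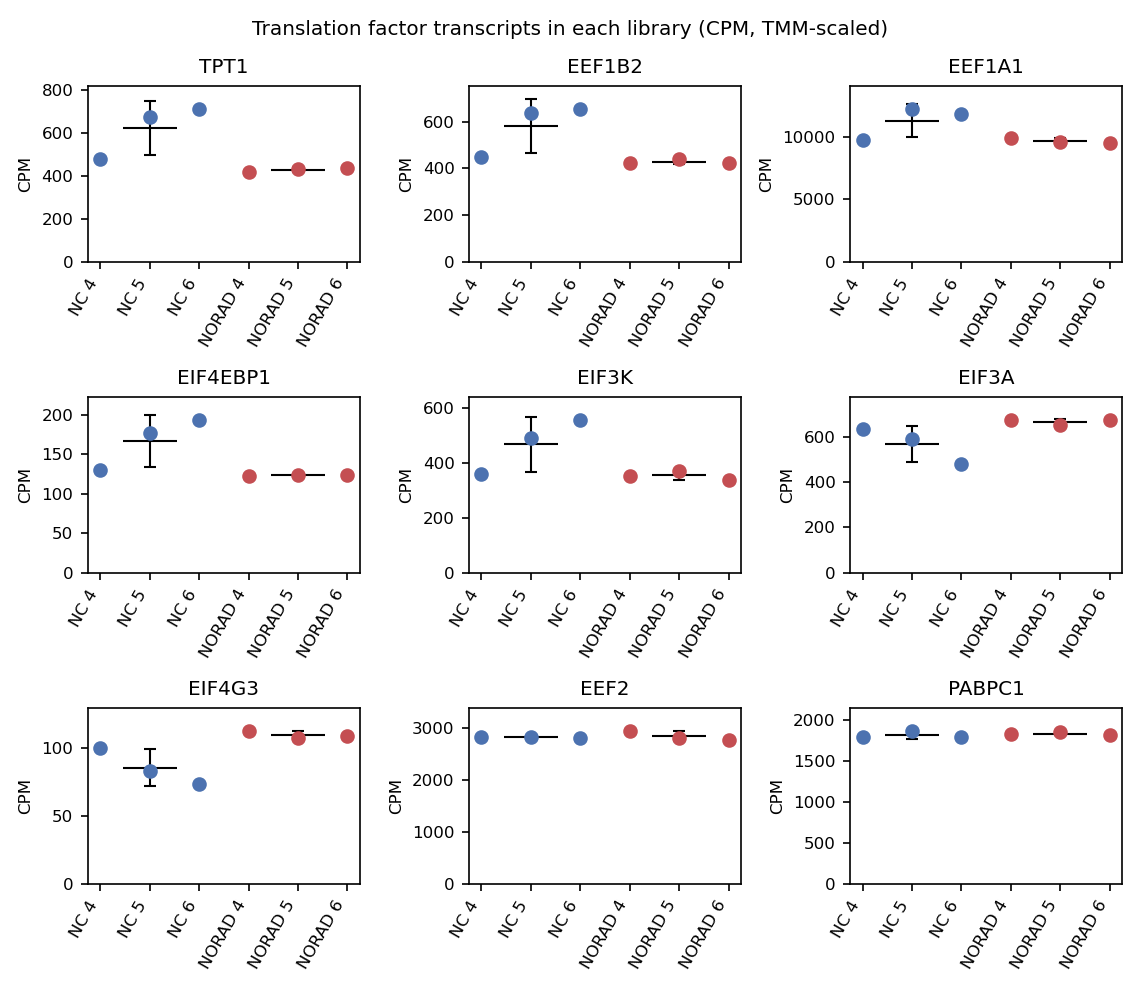
CPM (vertical axes, from 0) of 9 genes in each library, si-NC in blue and si-NORAD in red, with the mean and SD of each group of 3 in black. TPT1, EEF1B2, EIF4EBP1 and EIF3K are high in si-NC 5 and si-NC 6, EIF3A and EIF4G3 are low in si-NC 6, and EEF2 and PABPC1 differ little.

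Of the 3 subunits of eIF2, which carries the initiator tRNA, only the beta subunit EIF2S2 had groups that did not overlap. EIF2S2 was at 231, 290 and 283 CPM in si-NC 4, 5 and 6, against 222, 216 and 223 CPM in si-NORAD 4, 5 and 6, a log2 fold change of -0.28 (SE 0.10, adjusted p = 0.198). It was -0.07 without si-NC 5 and si-NC 6 and passed at -0.38 without si-NC 4 (adjusted p = 0.000103). The alpha subunit EIF2S1, whose phosphorylation lowers translation under stress, was at 196, 241 and 207 CPM in si-NC, against 193, 188 and 199 CPM in si-NORAD (log2 fold change -0.15, adjusted p = 0.342). The gamma subunit EIF2S3 was at 218, 219 and 216 CPM in si-NC, against 225, 214 and 220 CPM in si-NORAD (0.01, adjusted p = 0.916). Members of 1 complex thus ranged from a value of almost 0 to -0.28. EIF2S3, with a TOP motif at its start, was the steadiest of the 3.

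The 5 subunits of eIF2B, the exchange factor that recharges eIF2, all had fitted values below 0 and none had groups that did not overlap. Their mean levels were close to one another per length, 7.15 to 10.5 FPKM for EIF2B2, EIF2B3, EIF2B4 and EIF2B5, with EIF2B1 at 19.7 FPKM. EIF2B3 had the largest fitted change, at 24.2, 33.7 and 31.2 CPM in si-NC 4, 5 and 6, against 26.5, 25.5 and 23.4 CPM in si-NORAD (log2 fold change -0.24, adjusted p = 0.292). EIF2B1 was at 66.8, 78.6 and 83.7 CPM in si-NC, against 66.7, 67.3 and 66.6 CPM in si-NORAD (-0.19, adjusted p = 0.265). For EIF2B1 the si-NC 4 value thus fell within the si-NORAD range, with only si-NC 5 and si-NC 6 apart. EIF2B4 was at 41.1, 48.5 and 46.3 CPM in si-NC, against 41.6, 38.6 and 40.5 CPM in si-NORAD (-0.17). EIF2B2 was at 38.9, 41.0 and 42.8 CPM in si-NC, against 36.7, 35.7 and 38.9 CPM in si-NORAD (-0.14). EIF2B5, the catalytic subunit, was at 72.5, 82.9 and 74.8 CPM in si-NC, against 77.6, 72.3 and 74.5 CPM in si-NORAD (-0.04). EIF2B1, EIF2B3 and EIF2B5 turned to values above 0 without si-NC 5 and si-NC 6. In edgeR without si-NC 4, EIF2B1, EIF2B3 and EIF2B4 passed as lower (adjusted p = 0.00250, 0.00348 and 0.0153).

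The 13 subunits of eIF3, the scaffold that holds the small ribosomal subunit and the mRNA, divided in sign. Fitted values were below 0 for 11 subunits and above 0 for EIF3A and EIF3C, with a median of -0.12. EIF3K (ENSG00000178982, chr19:38619082-38636955, plus strand), a small subunit at the edge of the complex, was at 358, 488 and 555 CPM in si-NC 4, 5 and 6, against 353, 370 and 336 CPM in si-NORAD (log2 fold change -0.40, SE 0.14, adjusted p = 0.202). EIF3A, the largest subunit, was at 636, 591 and 482 CPM in si-NC, against 676, 655 and 677 CPM in si-NORAD (0.23, SE 0.11, adjusted p = 0.247). The 2 subunits thus stood furthest apart in si-NC 6, and the FPKM ratio of EIF3K to EIF3A was 1.43, 2.09 and 2.93 in si-NC 4, 5 and 6, against 1.32, 1.44 and 1.26 in si-NORAD 4, 5 and 6. In si-NC 4 this ratio lay within the si-NORAD values. Without si-NC 5 and si-NC 6 the fold change was -0.02 for EIF3K and 0.07 for EIF3A. Both passed without si-NC 4, EIF3K at -0.56 (adjusted p = 3.31e-05) and EIF3A at 0.32 (adjusted p = 0.00376).

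Among the TOP type subunits of eIF3, EIF3E was at 612, 725 and 700 CPM in si-NC, against 586, 585 and 578 CPM in si-NORAD, with no overlap (log2 fold change -0.22, SE 0.09, adjusted p = 0.216). Its fold change was -0.07 without si-NC 5 and si-NC 6 and passed at -0.29 without si-NC 4 (adjusted p = 0.000402). EIF3H was at 302, 347 and 348 CPM in si-NC, against 303, 295 and 285 CPM in si-NORAD (-0.18, adjusted p = 0.257). EIF3F was at 334, 384 and 437 CPM in si-NC, against 364, 369 and 352 CPM in si-NORAD (-0.09, adjusted p = 0.604). In EIF3F si-NC 4 lay below every si-NORAD library, and without si-NC 5 and si-NC 6 its value turned to 0.11. Of the other subunits, EIF3I lay lower without overlap (253, 327 and 334 CPM against 253, 246 and 252 CPM, log2 fold change -0.29, adjusted p = 0.205), although si-NC 4 and si-NORAD 4 were equal to the whole CPM. For EIF3I the value was -0.02 without si-NC 5 and si-NC 6 and passed at -0.40 without si-NC 4 (adjusted p = 5.93e-05). EIF3G had a fold change of -0.27 and EIF3M of -0.21, while EIF3D, EIF3B, EIF3J and EIF3L lay between -0.12 and -0.03. EIF3C lay higher without overlap (40.3, 38.5 and 33.9 CPM against 41.0, 44.6 and 45.5 CPM, log2 fold change 0.22, adjusted p = 0.223). It has a near-identical copy, EIF3CL, in the table, so the split of reads between them is uncertain.

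The cap-binding factors and their partners included the highest fold changes of the members. EIF4G3 (ENSG00000075151, chr1:20806292-21176888, minus strand), a scaffold paralog of EIF4G1, was at 100 CPM, 83.4 CPM and 73.3 CPM in si-NC 4, 5 and 6, against 113, 108 and 109 CPM in si-NORAD 4, 5 and 6. The groups did not overlap, with a log2 fold change of 0.36 (SE 0.11, adjusted p = 0.196) that was 0.14 without si-NC 5 and si-NC 6. It passed at 0.49 without si-NC 4 (adjusted p = 0.000132). EIF4G1, the main scaffold, was at 1001, 968 and 882 CPM in si-NC, against 1004, 978 and 973 CPM in si-NORAD (0.05, adjusted p = 0.736). EIF4G2, which lacks the eIF4E-binding part, was at 1440, 1436 and 1283 CPM in si-NC, against 1424, 1419 and 1413 CPM in si-NORAD (0.03, adjusted p = 0.839). In all 3 scaffold genes si-NC 6 was the lowest of the 6 libraries. EIF4G1 was 10.3 to 14.0 times as abundant as EIF4G3 by FPKM.

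The helicase genes EIF4A1 and EIF4A2, which unwind the mRNA leader, had opposite signs. EIF4A1 (ENSG00000161960, chr17:7572706-7579005, plus strand) was at 9.09, 4.44 and 5.54 CPM in si-NC 4, 5 and 6, against 9.23, 9.11 and 10.03 CPM in si-NORAD 4, 5 and 6. The si-NC 4 value lay just under the si-NORAD values, and the fold change of 0.57 (SE 0.23, adjusted p = 0.210) was 0.05 without si-NC 5 and si-NC 6 and 0.92 without si-NC 4 (adjusted p = 0.000247). With a mean of 1.497 FPKM, EIF4A1 was the least abundant member per length, against 57.6 FPKM for EIF4A2. In GENCODE 29 EIF4A1 lies on the same strand as the readthrough gene SENP3-EIF4A1, which held 5 to 14 counts per library. No source used here says how reads shared by overlapping genes were counted, which makes both the level and the fold change of EIF4A1 uncertain. EIF4A2, with a TOP motif at its start, was at 352, 389 and 389 CPM in si-NC, against 328, 341 and 328 CPM in si-NORAD (-0.18, adjusted p = 0.228), without overlap.

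The helicase cofactors EIF4B and EIF4H and the cap-binding protein EIF4E gave small values. EIF4B, of TOP type, was at 783, 826 and 762 CPM in si-NC, against 811, 797 and 792 CPM in si-NORAD (log2 fold change 0.02, 95% interval -0.16 to 0.20). EIF4H had a fold change of -0.01 (interval -0.18 to 0.17) and EIF4E of -0.09 (interval -0.29 to 0.12). With the trend over gene length removed, EIF4E, the longest member, was at -0.34 (adjusted p = 0.182). EIF4E, at 5.83 FPKM, was among the least abundant members.

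The eIF4E-binding proteins, the repressors that mTOR inactivates, differed in level and in sign. EIF4EBP1 was at 130, 177 and 193 CPM in si-NC 4, 5 and 6, against 122, 124 and 124 CPM in si-NORAD 4, 5 and 6. No si-NORAD library reached si-NC 4, and the log2 fold change was -0.44 (SE 0.13, edgeR adjusted p = 0.196). It was -0.08 without si-NC 5 and si-NC 6, and -0.59 without si-NC 4, where it passed (adjusted p = 1.24e-05). EIF4EBP2 was at 72.2, 66.3 and 59.7 CPM in si-NC, against 69.1, 69.4 and 68.4 CPM in si-NORAD (0.06, adjusted p = 0.679), with overlap. The FPKM ratio of EIF4EBP1 to EIF4EBP2 was 12.2, 18.1 and 21.9 in si-NC 4, 5 and 6, against 11.9, 12.1 and 12.2 in si-NORAD 4, 5 and 6. Only si-NC 5 and si-NC 6 stood apart in this ratio.

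Factors of start codon selection and subunit joining had values below 0 in 5 of 6 genes. EIF1, which guards start codon choice, was at 724, 913 and 912 CPM in si-NC, against 731, 691 and 675 CPM in si-NORAD (log2 fold change -0.28, adjusted p = 0.207), overlapping through si-NC 4. The EIF1 value was -0.05 without si-NC 5 and si-NC 6 and passed at -0.39 without si-NC 4 (adjusted p = 9.72e-05). Its paralog EIF1B was at 32.6, 36.3 and 37.8 CPM in si-NC, against 31.1, 30.3 and 29.9 CPM in si-NORAD (-0.22, adjusted p = 0.207), without overlap. The FPKM ratio of EIF1 to EIF1B was 11.7 to 13.3 in the 6 libraries, so the paralogs kept similar proportions. EIF6, which keeps the large subunit from joining too early, had a fold change of -0.29 (adjusted p = 0.209), and EIF5A, which helps the ribosome through difficult peptide bonds, of -0.25 (adjusted p = 0.274). Without si-NC 4 both passed, EIF6 at -0.41 (adjusted p = 0.000177) and EIF5A at -0.39 (adjusted p = 0.000106), whereas without si-NC 5 and si-NC 6 they were at -0.01 and 0.08. EIF5, the GTPase activator of eIF2, was at -0.07. EIF5B, the GTPase of subunit joining, was at 173, 198 and 183 CPM in si-NC, against 195, 196 and 204 CPM in si-NORAD. Its fold change of 0.10 (adjusted p = 0.454) was 0.19 without si-NC 5 and si-NC 6, which leaves si-NC 4 alone in its group. The EIF5B groups overlapped through si-NC 5.

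Fold changes of the members varied with gene length, a property the list did not use. Across the 44 genes Spearman's rank correlation between length and log2 fold change was 0.58 and Pearson's r with log2 length was 0.52. Over all 15515 genes tested they were 0.38 and 0.29. These are descriptions across genes that share the same 6 libraries and their length trends. The 11 shortest members (1073 to 3411 bases) all had values below 0, with a median of -0.28, whereas of the 11 longest (7269 to 14067 bases) 5 were above 0 and the median was -0.07. TPT1 stood outside this order, with an implied length of 7269 bases and the lowest value. All these lengths are those implied by count and FPKM, and need not be those of the transcripts present in these cells. The place of TPT1 and the fit with the length trend removed both rest on them. With the trend over length removed from each library, 35 members lay below 0, and the medians were -0.25 for the TOP type and -0.16 for the others, against -0.03 over all genes tested. No member passed in that fit either (0 of 44, with 3374 of all genes tested at an unadjusted p under 0.05). What part of the members' values comes from length was not tested.

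**Figure D5:**
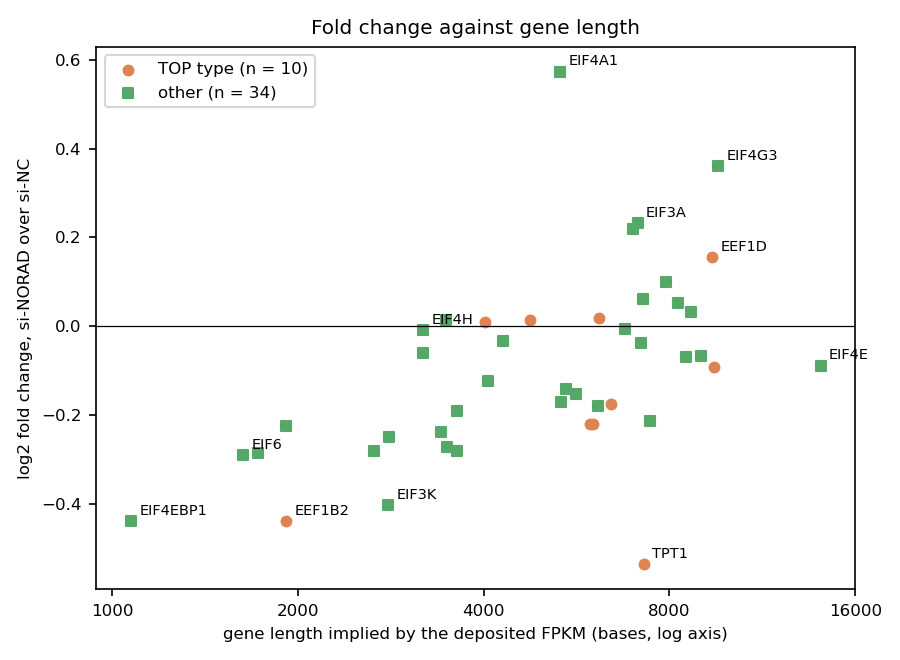
Log2 fold change of si-NORAD over si-NC (vertical axis) against gene length implied by count and FPKM (horizontal log axis, bases) for 10 TOP type and 34 other genes. The shortest genes, such as EIF4EBP1 and EEF1B2, lie lowest, EIF4G3 and EIF3A lie above 0, and TPT1 lies lowest of all at 7269 bases.

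Grouping by the motif at the exact RefSeq start, in place of the named TOP type, set the medians of the classes further apart, over fewer genes. The 11 tested genes with the motif had a median log2 fold change of -0.18 (8 below 0 and 3 above) and ranged from -0.54 for TPT1 to 0.02 for EIF4B. The 23 with a listed start and no motif had a median of -0.07 (16 below 0 and 7 above), from -0.29 for EIF6 to 0.57 for EIF4A1. Members without a listed start, such as EIF4EBP1 (-0.44) and PABPC1 (0.01), are not in this grouping, so its medians are over another set than those of the named classes. The ranges of the classes overlapped widely, and the difference was not tested. It also rests on the exact start. With the motif allowed within 2 bases of it, 14.7% of genes tested with a listed start held it. That rule adds EIF3J (-0.06), EIF4EBP2 (0.06) and EIF4G2 (0.03) to the motif genes, all nearer 0 than the motif median. The grouping under that rule was not compared. Among motif genes the medians by library were -0.09, 0.14 and 0.18 in si-NC 4, 5 and 6, against -0.07, -0.05 and -0.11 in si-NORAD 4, 5 and 6. Among genes without it they were -0.05, 0.14 and 0.03 in si-NC 4, 5 and 6, against -0.03, -0.07 and -0.02 in si-NORAD 4, 5 and 6. The classes stood furthest apart in si-NC 6.

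NORAD is known for binding the Pumilio proteins, which recognise the element TGTANATA (N is any base) in mRNA. The 3' ends beyond the stop codon of the members, the longest per gene in GENCODE 29, were searched on the mRNA strand. At least 1 element was found in 9 of the 44 (20.5%), against 29.6% of the genes tested with an annotated region, and 2 or more in EIF3F and EIF4E (4.55%, against 10.6%). EIF4E held 7 elements in 9344 bases. The 9 genes had a median log2 fold change of -0.07, with 3 above 0, and the members without the element had -0.15. Over all genes tested these medians were 0.07 with the element and -0.04 without it. Genes with and without the element were not matched for the length of the gene or of its 3' end. Fold changes rose with gene length over all genes tested (Spearman's rank correlation 0.38). A link between the element and the fold change was not tested.

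Genes of the pathway outside the members also gave no call in edgeR. Counts at an unadjusted p under 0.05 stand here against 12.1% lower and 9.51% higher over all genes tested. Of 30 tested initiation, elongation, termination and rescue factors, 0 passed. At an unadjusted p under 0.05, 4 were lower and 0 higher, the lowest p being those of EIF4A3 (log2 fold change -0.29, adjusted p = 0.199) and EIF1AX (-0.21, adjusted p = 0.211). Of 32 regulators, 0 passed and 8 had an unadjusted p under 0.05, 4 lower and 4 higher. In both lists the share that was lower at that p lay near that over all genes. Fitted values at any p were below 0 for 83.3% of the 30 factors and 37.5% of the regulators, against 49.1% of all genes tested. Among the regulators the lowest p were those of RHEB, the small GTPase that activates mTOR complex 1 (-0.32, adjusted p = 0.196), and MLST8, a subunit of the mTOR complexes (-0.35, adjusted p = 0.196). Of 10 mitochondrial translation factors, 0 passed and 0 had an unadjusted p under 0.05, with TSFM at -0.29 and TUFM at -0.18 having the lowest p. Of the 79 ribosomal protein genes 0 passed, although 72 were lower and 0 higher at an unadjusted p under 0.05. The lowest p were those of RPL27 (-0.65) and RPS3A (-0.63).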

How the data were processed

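Per the labels' protocols, RNA of transfected A549 cells was depleted of ribosomal RNA and made into directional libraries. The tools named are FastQC, HISAT2 and HTSeq 0.6.1, with build GRCh38, per the submitters' processing notes. The authors deposited raw read counts per gene and FPKM values, which the file headers name per library. Columns matched sample titles, with 0 columns of other samples.

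The main test was that of edgeR 4.0.16 under R 4.3.3 on the raw counts (filterByExpr, TMM, robust quasi-likelihood F test, two-sided, no covariates), which was tested on simulated data first. A call is a Benjamini-Hochberg adjusted p under 0.05 over all 15515 genes tested. Intervals are 95%. Deviations use log2 CPM with a prior count of 2. Gene length is the one implied by count and FPKM (1 length per gene for 100% of values within 0.1%). The 45 members and all gene lists were chosen with earlier results of these data known, so medians and counts over them are descriptions. Named genes are all members, and from each list the 2 with the lowest p. Alternatives were RLE or upper quartile scaling, no filter, 1 CPM in 3 libraries, DESeq2 1.42.0, limma-voom and limma 3.58.1 on log2 of FPKM plus 1 or 0.1 (at least 0.5 FPKM in 3 libraries), a replicate block, left-out libraries, and a length trend removed by loess (span 0.3). Annotation was GENCODE 29. Sequences were read with Python 3.11.15, and figures drawn with matplotlib 3.10.9.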

Additional observations from a re-analysis of the deposited data

How the results depend on the processing

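Under RLE scaling, upper quartile scaling and the 1 CPM filter, edgeR called 0 members and 1 gene, as with TMM. No call for a member was made with limma-voom (2 genes), log2 of FPKM plus 1 or 0.1 (3 genes each) or the length trend removed (5 genes). Without the low-count filter, 7 members and 1935 genes passed: EEF1B2, TPT1, EIF1, EIF3K and EIF4EBP1 lower, EIF4A1 and EIF4G3 higher. DESeq2 called 1 member and 382 genes. Leaving out 1 library at a time gave 0 to 27 members and 0 to 6251 genes, the highest without si-NC 4. Without si-NC 5 and si-NC 6, 2 members and 499 genes passed. Same-numbered libraries did not deviate together (correlations -0.03, -0.02 and -0.07), no library correlated best with its own number, and a replicate block gave 2 genes and 0 members. The TOP type median ran from -0.21 to -0.076 over the left-out libraries, was -0.0019 without si-NC 5 and si-NC 6 and -0.25 with the length trend removed. The median of the others was -0.011 without si-NC 5 and si-NC 6. TOP type minus other ran from -0.057 to 0.033 over the left-out libraries, was 0.0091 without si-NC 5 and si-NC 6 and -0.097 with the length trend removed. Some members changed sign, without si-NC 5 and si-NC 6 also EIF3G, EIF5A, EIF2B3 and EIF3M, whose main values were -0.27 to -0.21. With FPKM plus 1 those that changed sign were PABPC4 (0.053), EIF2B5 (0.024), EIF3J (0.0033), EIF3L (0.029) and EIF4H (0.052), and with FPKM plus 0.1 PABPC4 (0.055), EIF2B5 (0.026), EIF3J (0.0034), EIF3L (0.029) and EIF4H (0.053). Without si-NC 5 and si-NC 6 they were EIF3F (0.11), EIF2B1 (0.0022), EIF2B3 (0.065), EIF2B5 (0.048), EIF3B (0.080), EIF3D (0.0088), EIF3G (0.0035), EIF3M (0.0097), EIF4E (0.071), EIF4EBP2 (-0.066), EIF4G1 (-0.023), EIF4G2 (-0.022) and EIF5A (0.077). With the length trend removed they were EIF4B (-0.045), EIF4EBP2 (-0.031), EIF4G1 (-0.068), EIF4G2 (-0.098), EIF4H (0.047) and EIF5B (-0.016). Over the left-out libraries, EEF2 ran from -0.017 to 0.028, EIF2B5 from -0.077 to 0.021, EIF2S3 from -0.0035 to 0.032, EIF3F from -0.18 to 0.0082, EIF3J from -0.11 to 0.0094, EIF4B from -0.0095 to 0.049, EIF4EBP2 from -0.0071 to 0.13, EIF4G1 from -0.0013 to 0.089, EIF4G2 from -0.021 to 0.060, EIF4H from -0.048 to 0.029, PABPC1 from -0.00039 to 0.032 and PABPC4 from -0.022 to 0.0060. The cause of these changes was not tested. EIF4A1 had the lowest depth of the members, with 100 to 308 counts per library.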
